A study of Mus musculus with 18 samples.

Results

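The 44 genes described here are interferon-stimulated genes and genes of MHC class I antigen presentation in the mouse heart. They were taken by gene symbol from a list of 8 roles: 5 transcription factors, 4 nucleic acid sensors, 5 ubiquitin-like and ADP-ribose modifiers, 15 antiviral effectors, 6 interferon-inducible GTPases, 3 immunoproteasome subunits, 3 peptide loading genes and 3 MHC class I chains. All 44 were found among the 34150 genes of the files, and all 44 passed the filter of a mean of at least 0.5 FPKM (fragments per kilobase of transcript, scaled to the reads mapped in the library) that left 13710 genes for testing. Ribosomal RNA was depleted from total RNA of dissected mouse hearts, and 18 libraries were sequenced. They comprised 6 HXP, 6 MI and 6 control libraries. MI stands for myocardial infarction, and the title of the series places HXP as a treatment in mice with acute infarcts. What HXP abbreviates, its dose, the time after infarction, the age, sex and strain of the mice, the operation that the controls had and the region of the heart sampled are details that the sources used here do not give. Neither is it stated whether each HXP heart carried an infarct, nor whether libraries of a group came from separate mice, so all p-values rest on a spread between libraries that may be partly technical.

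Interferons are secreted when a cell senses foreign or misplaced nucleic acid. Type I interferons bind a receptor whose signal brings a complex with STAT2 and IRF9 to the interferon-stimulated response element (ISRE) in promoters of antiviral genes. Interferon gamma acts through the gamma-activated site (GAS) and raises IRF1, the immunoproteasome, the peptide transporter and the class I chains, together with the guanylate-binding and immunity-related GTPases. In the infarcted heart, macrophages that take up DNA of dying cells are a known source of type I interferon signalling. MHC class I molecules stand on nearly all nucleated cells and carry peptides that the proteasome cuts, the TAP transporter moves and tapasin helps to load.

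Library depth, read off the steps between FPKM values, was 75.8 to 81.1 M reads, so that the precision of these genes was set by the spread between libraries rather than by counting, apart from a few low ones (Mx1 rested on 4 reads in its lowest library). The share of reads from mitochondrial genes ran from 16.6% to 36.8% in HXP, 16.6% to 27.4% in MI and 29.9% to 34.7% in control libraries. MI 5 held lung epithelial markers at a summed 1182 FPKM, against at most 0.57 FPKM in HXP and 0.18 FPKM in control libraries. The 18 libraries carried numbers that fell into 3 runs, of which the run of 10 held HXP 2 and 5, MI 1, 2, 3, 4 and 6, and control 3, 4 and 6. Another run held HXP 1, 3, 4 and 6 and control 1 but no MI library, and the last held MI 5 and control 2 and 5. A difference between HXP and MI therefore cannot be fully told apart from one between runs. MI 1 and MI 2 were more alike than other pairs of MI libraries but differed by more than sampling noise (chi-square per degree of freedom 17.2), so both were kept.

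Sequences are shown first for promoters of genes that the results turn on, with the interferon motif in capitals. Promoter windows of 300 bases (250 before the start site and 50 after it) were read from RefSeq for the build GRCm38.p6 and matched 31 of the 44 genes. The ISRE core was searched as GAAA, any 2 bases, GAAA, and on the other strand as TTTC, any 2 bases, TTTC. It was found in 15 of the 31 genes, against 3.99% of 27025 genes of the same table. The longer form, in which the core is followed by CT, was found in 9 of the 31 genes, against 0.303% of all genes. The GAS core TTCNNNGAA, whose letters read the same on both strands and can share bases with the ISRE core, was found in 8 of the 31 genes, against 9.55% of all genes. By role, the ISRE core was found in 5 of 5 GTPases, 2 of 2 sensors, 5 of 10 effectors, 1 of 2 modifiers, 1 of 4 transcription factors, 1 of 3 class I chains, 0 of 3 immunoproteasome subunits and 0 of 2 peptide loading genes. A match is a description of these letters and not of binding.

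The first set shows 70 bases around the matches of 7 interferon-stimulated genes. The windows lie at chr4:156200851-156200920 (minus strand) for Isg15, chr19:34640764-34640833 (plus strand) for Ifit1, chr19:34583360-34583429 (plus strand) for Ifit3, chr5:120907526-120907595 (minus strand) for Oas1a, chr8:71537560-71537629 (minus strand) for Bst2, chr3:142620574-142620643 (plus strand) for Gbp2 and chr11:48871421-48871490 (minus strand) for Irgm1. Each is written 5′ to 3′ in the direction of its gene. The match nearest to the start site began 14 bases before it in Oas1a, 24 in Irgm1, 59 in Gbp2, 66 in Isg15, 85 in Ifit1, 122 in Ifit3 and 124 in Bst2. In Isg15 and Irgm1, and in Oas1a and Bst2, neighbouring matches overlap into one longer run of capitals.
Isg15: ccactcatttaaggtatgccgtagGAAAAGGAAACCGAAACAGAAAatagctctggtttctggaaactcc
Ifit1: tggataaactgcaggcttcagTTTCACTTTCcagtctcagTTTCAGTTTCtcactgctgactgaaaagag
Ifit3: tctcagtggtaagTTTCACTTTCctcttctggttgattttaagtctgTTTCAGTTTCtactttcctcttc
Oas1a: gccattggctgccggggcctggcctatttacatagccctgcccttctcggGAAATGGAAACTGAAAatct
Bst2: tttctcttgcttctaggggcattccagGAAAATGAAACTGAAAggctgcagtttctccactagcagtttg
Gbp2: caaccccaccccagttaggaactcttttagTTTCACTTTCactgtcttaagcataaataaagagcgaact
Irgm1: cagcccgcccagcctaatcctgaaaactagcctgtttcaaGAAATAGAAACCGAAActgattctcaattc

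The second set shows class I presentation genes, of which B2m alone had a match. The B2m window lies at chr2:122147518-122147587 (plus strand), and its match began 139 bases before the start site. The 250 bases before the H2-K1 start site, at chr17:34000348-34000597 (minus strand), held no ISRE core and no GAS core in the exact letters searched. Elements spelled otherwise are not found by this search, so it cannot show that a promoter lacks an interferon element. Capitals there mark GGGATTCCC, a core of the NF-kB type, which was searched on both strands (GGGAATCCC on the other) after the window had been read. It was found in H2-K1, H2-D1 and Irf1 among the 31 genes and in 0.414% of all genes. The 250 bases before Tap1, at chr17:34187306-34187555 (plus strand), are shown because Tap1 and Psmb9 face away from each other and their 300-base windows share 275 bases. Neither window held any of the motifs searched.
B2m: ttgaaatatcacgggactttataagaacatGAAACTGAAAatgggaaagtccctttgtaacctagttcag
H2-K1: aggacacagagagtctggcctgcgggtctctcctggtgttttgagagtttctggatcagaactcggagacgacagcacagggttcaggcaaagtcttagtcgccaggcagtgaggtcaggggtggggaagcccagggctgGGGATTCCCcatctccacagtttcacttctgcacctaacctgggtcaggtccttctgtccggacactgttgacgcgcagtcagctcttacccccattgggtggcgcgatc
Tap1: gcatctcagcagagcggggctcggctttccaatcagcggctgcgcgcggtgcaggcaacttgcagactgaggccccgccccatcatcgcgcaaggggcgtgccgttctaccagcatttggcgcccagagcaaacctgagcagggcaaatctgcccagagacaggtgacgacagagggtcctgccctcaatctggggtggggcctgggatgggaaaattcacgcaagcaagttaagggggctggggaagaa

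In the fit of all 3 groups, a subset of the interferon-stimulated genes, most of them antiviral effectors, was higher in MI than in control hearts. The GTPases and the 9 genes of class I presentation did not pass the test in that fit. Of the 44 genes, 13 were called higher and 0 lower in MI against control by limma at an adjusted p below 0.05. Over all 13710 genes tested, 40.1% were called higher and 3.21% lower, so 13 of 44 is below the share of all genes. The fold changes were positive for 42 of the 44 (36 under quantile normalization and 35 under median-ratio scaling), against 81.0% of all genes. Their median log2 fold change was 0.52, against 0.27 for all genes tested, and 36 of the 44 lay above that all-gene median. At an unadjusted p below 0.05, 27 of the 44 and 6852 of the 13710 genes tested were higher, and 0 of the 44 were lower. In 4 genes (Oas1a, Oasl2, Ifi27 and Tapbp) every MI library lay above every control library, which held for 27.9% of all genes. In bulk tissue, more cells of a type and more RNA per cell cannot be told apart.

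The count of 13 moved with the scale, with the groups in the fit and with single libraries. With the MI and control libraries fitted alone it was 34 (77.3% of the 44), against 53.9% of all genes called higher. Quantile normalization left 1 gene called higher (Oasl2) and 1 lower (Iigp1), with the median of all genes at -0.06 and 1869 of all genes called higher and 2316 lower, against 5494 higher and 440 lower as reported. Scaling by median ratios left 3 higher (Oasl2, Oas1a and Stat2) and 1 lower (Iigp1), with 2257 of all genes higher and 2213 lower. Removing each library's trend with GC content left 4 higher (Oasl2, Oas1a, Stat2 and Rtp4), with 2324 of all genes higher and 2006 lower. When 1 library was left out, the calls over all genes moved as well. The count was 28 without MI 6 (44.5% of all genes higher), 26 without HXP 3 (46.5%) and 25 without HXP 6 (46.3%). It was 7 without control 1 (27.3% of all genes higher), 5 without control 2 (26.6%), 5 without control 3 (32.9%), 5 without control 5 (32.0%) and 6 without control 6 (35.03%). It was 6 without MI 1 (29.3% of all genes higher), 5 without MI 2 (27.7%), 4 without MI 3 (28.7%) and 3 without MI 5 (18.4%). Leaving out MI 4 and MI 5 together left 0 of the 44 and 0 of all genes called by limma. The median of the 44 was then 0.54, the smallest adjusted p among them 0.0555 (Stat2), and 17 had an unadjusted p below 0.05. Within the run of 10 libraries alone 0 of the 44 and 74 of all genes were called higher, with a median of 0.44, 44 of 44 positive and 14 at an unadjusted p below 0.05. Where they could be tested, Oasl2 was called under 31 of 33 alternatives, Stat2 under 30 of 33, and Oas1a and Rtp4 under 29 of 33 each. Of the presentation genes, B2m and Tapbp were called under 6 alternatives each, H2-D1 and Tap1 under 5 and H2-K1 under 2. Psmb8, Psmb10 and Tap2 were called under 1 each and Psmb9 under 0.

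**Figure D1:**
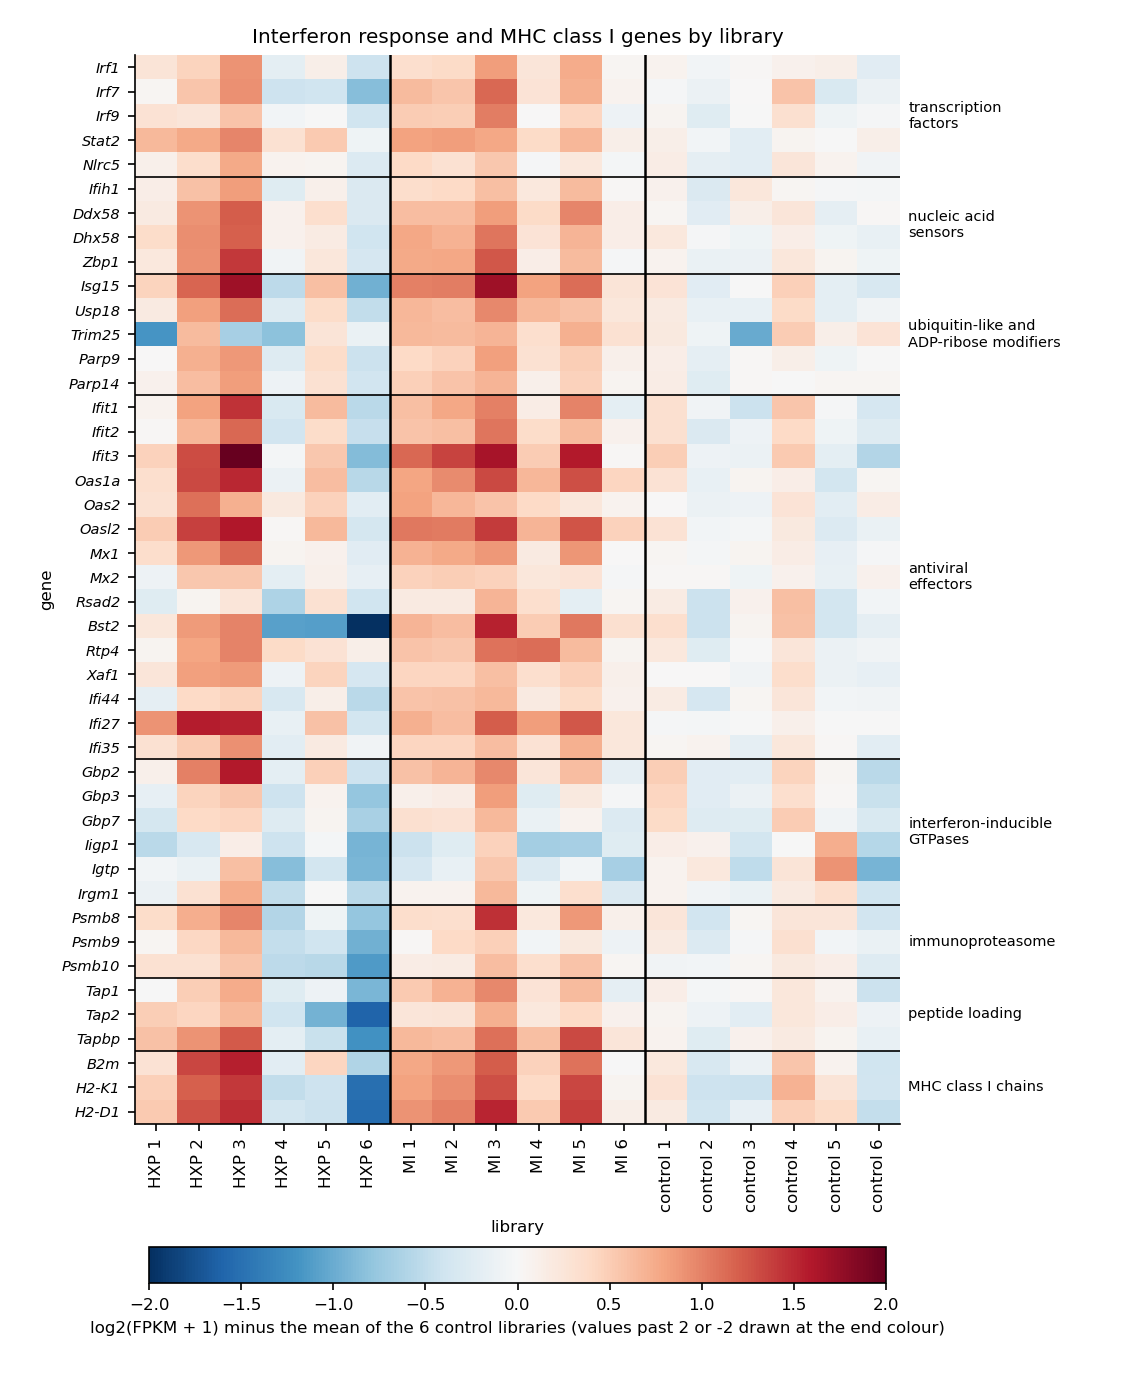
Difference of log2(FPKM + 1) from the mean of the 6 control libraries for each of the 44 genes (vertical, by role) in each library (horizontal; HXP, MI and control, 6 each), red for higher and blue for lower. HXP 3 and MI 3 are red through most genes, HXP 6 is blue in nearly all of them, and HXP 5 is pale red in most genes of the upper part and pale to mid blue in the class I presentation genes at the bottom other than B2m.

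Among the transcription factors 1 of 5 was called higher in MI, where 40.1% of all genes were, and 4 of 5 were higher at an unadjusted p below 0.05. In the values below, 3 numbers per group are the lowest, the median and the highest of its 6 libraries. Stat2, a factor of the type I interferon complex, had 1.997, 3.75 and 5.23 FPKM in HXP libraries, 2.45, 4.23 and 4.67 FPKM in MI libraries, and 1.73, 2.23 and 2.45 FPKM in control libraries. All but 1 of the MI libraries lay above every control library, and its log2 fold change in MI against control was 0.60 ± 0.16 (SE; limma adjusted p = 0.0149). Irf9, which gives that complex its DNA binding, had 2.29, 3.72 and 5.41 FPKM in HXP libraries, 3.05, 4.97 and 7.78 FPKM in MI libraries, and 2.64, 3.27 and 4.42 FPKM in control libraries. The MI and control ranges overlapped, and the difference was 0.39 ± 0.18 (SE; limma adjusted p = 0.0753). Irf7, which drives interferon genes themselves, had 0.728, 1.80 and 4.85 FPKM in HXP libraries, 2.27, 3.70 and 5.89 FPKM in MI libraries, and 1.52, 1.97 and 3.62 FPKM in control libraries. Its highest control library, control 4, lay inside the MI range, and the difference was 0.56 ± 0.25 (SE; limma adjusted p = 0.0782). Irf1, induced by interferon gamma, had 3.90, 6.47 and 11.2 FPKM in HXP libraries, 5.75, 7.40 and 10.7 FPKM in MI libraries, and 4.60, 5.76 and 6.10 FPKM in control libraries. MI libraries were higher in 5 of 6 cases than every control, but the test gave 0.43 ± 0.18 (SE; limma adjusted p = 0.0634). Nlrc5, the activator of class I genes, was expressed at 0.423, 0.823 and 1.92 FPKM in HXP libraries, 0.680, 1.06 and 1.51 FPKM in MI libraries, and 0.485, 0.727 and 1.04 FPKM in control libraries. The MI and control ranges overlapped, and the difference was the smallest of the 5, 0.23 ± 0.15 (SE; limma adjusted p = 0.202).

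Of the cytosolic sensors 2 of 4 were called higher in MI against control, near the 40.1% of all genes called higher. All 4 had positive fold changes and an unadjusted p below 0.05. Ddx58, which encodes the RNA sensor RIG-I, had 1.60, 2.82 and 6.36 FPKM in HXP libraries, 2.47, 3.87 and 5.23 FPKM in MI libraries, and 1.72, 2.24 and 2.74 FPKM in control libraries, and its log2 fold change in MI against control was 0.59 ± 0.21 (SE; limma adjusted p = 0.0322). Dhx58, which encodes the related LGP2, had 0.227, 0.953 and 2.69 FPKM in HXP libraries, 0.777, 1.61 and 2.39 FPKM in MI libraries, and 0.466, 0.565 and 0.871 FPKM in control libraries, with 0.60 ± 0.22 (SE; limma adjusted p = 0.0363). In both genes 5 of 6 MI libraries lay above every control, and MI 6 fell among the controls. Ifih1, which encodes the long RNA sensor MDA5, had 1.08, 1.76 and 3.53 FPKM in HXP libraries, 1.59, 2.31 and 2.92 FPKM in MI libraries, and 1.09, 1.56 and 1.96 FPKM in control libraries, and its difference was 0.37 ± 0.17 (SE; limma adjusted p = 0.0809). Zbp1, a sensor of left-handed nucleic acid, had 0.114, 0.642 and 2.76 FPKM in HXP libraries, 0.384, 1.29 and 2.34 FPKM in MI libraries, and 0.287, 0.389 and 0.644 FPKM in control libraries, with 0.59 ± 0.25 (SE; limma adjusted p = 0.0672). For these 2 genes 4 of 6 MI libraries exceeded every control library, and the highest library of all was HXP 3.

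Of the modifiers 2 of 5 were called higher, where 40.1% of all genes were, and 4 of 5 were higher at an unadjusted p below 0.05. Isg15, a ubiquitin-like protein that is secreted and joined to other proteins, had 2.58, 9.02 and 21.6 FPKM in HXP libraries, 7.30, 13.1 and 21.5 FPKM in MI libraries, and 4.58, 5.48 and 8.63 FPKM in control libraries. It was among the largest differences of the 44, 0.99 ± 0.36 (SE; limma adjusted p = 0.0360), and 5 of 6 MI libraries lay above every control. Usp18, which removes ISG15 and dampens the type I receptor, had 0.910, 2.25 and 4.80 FPKM in HXP libraries, 2.13, 3.16 and 4.25 FPKM in MI libraries, and 1.34, 1.49 and 2.49 FPKM in control libraries, with 0.62 ± 0.22 (SE; limma adjusted p = 0.0336). Parp9 and Parp14 belong to the ADP-ribosyltransferase family. Parp9 had 2.32, 4.15 and 7.17 FPKM in HXP, 3.80, 5.02 and 6.90 FPKM in MI and 2.97, 3.50 and 3.89 FPKM in control libraries, with 0.43 ± 0.19 (SE; limma adjusted p = 0.0697). Parp14 had 2.61, 4.38 and 7.35 FPKM in HXP, 3.87, 5.49 and 6.54 FPKM in MI and 2.97, 3.79 and 4.20 FPKM in control libraries, with 0.39 ± 0.17 (SE; limma adjusted p = 0.0687). Their MI medians were above their highest control library, and neither passed the test. Trim25, the ubiquitin ligase that acts on RIG-I, differed by 0.55 ± 0.28 (SE; limma adjusted p = 0.107) in MI against control, and its values are given with the comparison of HXP and MI.

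Antiviral effectors held 8 of the 13 calls. Of the 15 effectors tested 8 were called higher, where 40.1% of all genes were, and 12 were higher at an unadjusted p below 0.05. Ifit3, which binds viral RNA together with its relatives, had 3.31, 10.1 and 32.6 FPKM in HXP libraries, 7.02, 17.8 and 23.7 FPKM in MI libraries, and 4.24, 6.31 and 10.3 FPKM in control libraries. The fitted difference, 1.04 ± 0.40 (SE; limma adjusted p = 0.0439), was the largest of the 44 on the log2(FPKM + 1) scale, but 2 MI libraries lay inside the control range. As a ratio of mean FPKM, MI over control, Ifit3 stood at 2.30, below Mx1 at 4.23, Zbp1 at 2.92 and Oasl2 at 2.63, among others. Oasl2, of the oligoadenylate synthetase family, had 1.04, 2.89 and 6.90 FPKM in HXP libraries, 2.57, 4.37 and 5.89 FPKM in MI libraries, and 1.16, 1.51 and 2.19 FPKM in control libraries. No MI library overlapped a control library, and the difference was 0.98 ± 0.27 (SE; limma adjusted p = 0.0155). Oas1a, which makes the oligoadenylate that activates RNase L, was likewise free of overlap at 0.898, 2.89 and 6.94 FPKM in HXP, 2.76, 4.05 and 5.97 FPKM in MI and 1.16, 1.87 and 2.38 FPKM in control libraries, with 0.91 ± 0.28 (SE; limma adjusted p = 0.0220). Ifi27, a mitochondrial interferon-induced protein, had 11.0, 24.98 and 44.9 FPKM in HXP libraries, 17.0, 25.5 and 35.5 FPKM in MI libraries, and 14.0, 14.4 and 15.5 FPKM in control libraries. The controls were tight and every MI library lay above them, with 0.81 ± 0.28 (SE; limma adjusted p = 0.0327). The other calls were Rtp4 at 0.67 ± 0.18, the dynamin-like Mx1 at 0.57 ± 0.21, Oas2 at 0.46 ± 0.18 and Ifi35 at 0.45 ± 0.15, with adjusted p of 0.0158, 0.0374, 0.0477 and 0.0307 (limma).

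The 7 effectors that were not called differed in size. Rsad2, which encodes viperin and makes a chain-terminating nucleotide, had 3.10, 4.96 and 6.77 FPKM in HXP libraries, 4.52, 6.11 and 9.11 FPKM in MI libraries, and 3.70, 5.39 and 8.57 FPKM in control libraries. The groups overlapped over most of their range, and the difference was 0.20 ± 0.19 (SE; limma adjusted p = 0.388), the smallest among effectors. Mx2 had 0.265, 0.457 and 1.11 FPKM in HXP, 0.424, 0.870 and 1.05 FPKM in MI and 0.315, 0.474 and 0.547 FPKM in control libraries, with 0.31 ± 0.13 (SE; limma adjusted p = 0.0627). Bst2, which encodes tetherin and holds budding virus on the cell, differed by 0.78 ± 0.46 (SE; limma adjusted p = 0.163), a large difference beside a large error. Ifit1, Ifit2, Xaf1 and Ifi44 had differences of 0.56, 0.55, 0.39 and 0.41, with limma adjusted p of 0.134, 0.0666, 0.0709 and 0.0516. Each of these 4 had 4 of 6 MI libraries above every control. The Ifit genes lie near each other on chromosome 19, as do Oas1a and Oas2 on chromosome 5, and sequences are alike within each family. How reads that fit several copies were assigned is not given in the sources used here, so values of single family members are uncertain to that extent, as they are for the Gbp genes and for the class I heavy chains.

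**Figure D2:**
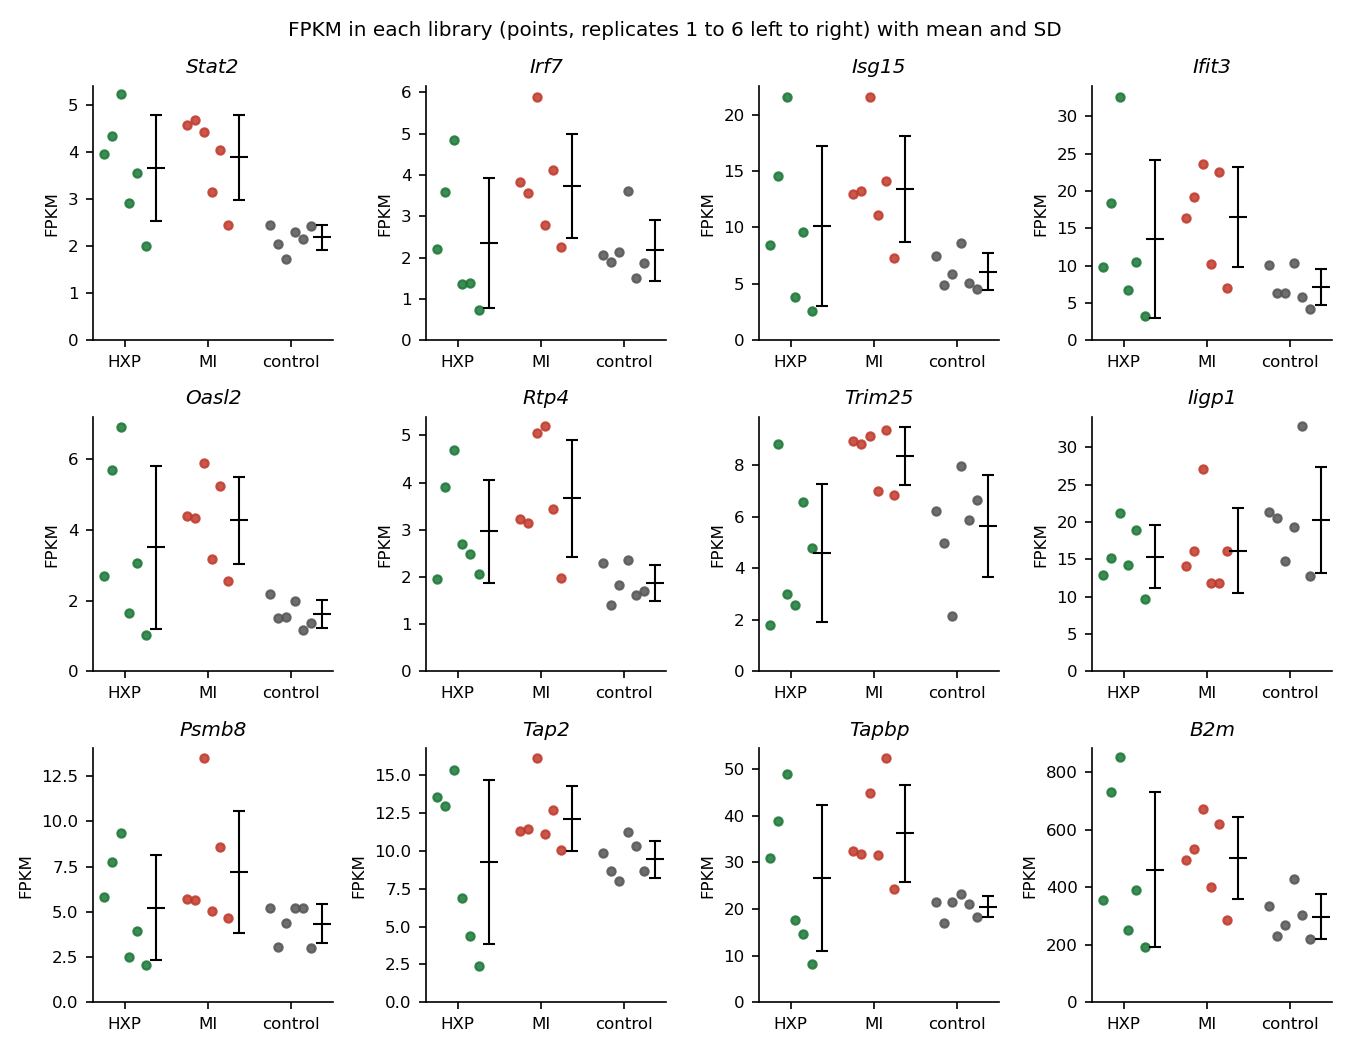
FPKM (vertical axes, from 0) of 12 genes in each library (points, replicates 1 to 6 from left to right in each group), with mean and SD in black. For Oasl2 every MI library lies above every control library, while for Iigp1 the highest library is a control. For B2m HXP libraries lie both above and below the MI range. For Tap2 and Tapbp 3 HXP libraries lie below the MI range and 0 above it.

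Of the interferon-inducible GTPases 0 of 6 were called by limma or by voom in MI against control, where limma called 40.1% of all genes higher, and 0 of 6 had an unadjusted p below 0.05. Their median log2 fold change was 0.14, against 0.27 for all genes, and it was -0.20 under median-ratio scaling and -0.21 under quantile normalization. No test compared them with the other roles. These proteins attack the vacuoles of intracellular microbes and are known chiefly as targets of interferon gamma. Gbp2 had 5.67, 9.96 and 25.6 FPKM in HXP libraries, 6.87, 12.5 and 16.2 FPKM in MI libraries, and 5.10, 7.39 and 11.5 FPKM in control libraries, the largest difference of the 6 at 0.48 ± 0.30 (SE; limma adjusted p = 0.178). Iigp1 had 9.65, 14.7 and 21.3 FPKM in HXP libraries, 11.8, 15.1 and 27.1 FPKM in MI libraries, and 12.8, 19.9 and 32.9 FPKM in control libraries. It was the most negative of the 44 genes, -0.30 ± 0.23 (SE; limma adjusted p = 0.277), with control 5 as its highest library. Iigp1 was called lower under median-ratio scaling, at -0.68 (limma adjusted p = 0.0304), and under quantile normalization, at -0.62 (limma adjusted p = 0.0416). Igtp, also an immunity-related GTPase, had 4.69, 8.04 and 15.2 FPKM in HXP libraries, 5.79, 8.26 and 14.6 FPKM in MI libraries, and 4.64, 10.8 and 19.0 FPKM in control libraries, and control 5 was again the highest of all. Its difference was -0.15 ± 0.29 (SE; limma adjusted p = 0.674). Irgm1, which regulates the others, had 2.60, 4.01 and 7.75 FPKM in HXP libraries, 3.27, 4.49 and 7.22 FPKM in MI libraries, and 2.99, 4.25 and 5.58 FPKM in control libraries, with 0.12 ± 0.20 (SE; limma adjusted p = 0.623) and wide overlap. Gbp3 and Gbp7 differed by 0.17 and 0.16, with limma adjusted p of 0.538 and 0.539.

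No immunoproteasome or peptide loading gene was called in MI against control by limma or voom, and Tapbp alone of the 6 had an unadjusted p below 0.05. Psmb8, which replaces the constitutive subunit Psmb5, had 2.06, 4.88 and 9.35 FPKM in HXP libraries, 4.67, 5.67 and 13.5 FPKM in MI libraries, and 3.01, 4.80 and 5.24 FPKM in control libraries. MI 3 and MI 5 stood high, MI 6 lay within the control range, and the difference was 0.55 ± 0.29 (SE; limma adjusted p = 0.121). Psmb9 had 0.601, 1.79 and 3.89 FPKM in HXP libraries, 1.91, 2.36 and 3.35 FPKM in MI libraries, and 1.56, 2.02 and 2.88 FPKM in control libraries, with 0.16 ± 0.22 (SE; limma adjusted p = 0.547) and nearly complete overlap. Psmb10 was the highest of the 3 in FPKM at 8.54, 19.1 and 29.7 FPKM in HXP, 20.4, 23.7 and 31.1 FPKM in MI and 16.4, 19.8 and 22.8 FPKM in control libraries, with 0.31 ± 0.23 (SE; limma adjusted p = 0.258). Tap1, which forms the peptide transporter with Tap2, had 0.592, 1.88 and 4.03 FPKM in HXP libraries, 1.66, 3.48 and 4.85 FPKM in MI libraries, and 1.24, 2.10 and 2.50 FPKM in control libraries. All but 1 MI library exceeded every control, and the test gave 0.48 ± 0.23 (SE; limma adjusted p = 0.0934). Tap2, its partner, had 2.42, 9.92 and 15.3 FPKM in HXP libraries, 10.03, 11.4 and 16.1 FPKM in MI libraries, and 7.99, 9.25 and 11.2 FPKM in control libraries, with 0.32 ± 0.30 (SE; limma adjusted p = 0.375). Tapbp, which encodes tapasin, had 8.26, 24.3 and 49.0 FPKM in HXP libraries, 24.3, 32.1 and 52.3 FPKM in MI libraries, and 17.1, 21.4 and 23.2 FPKM in control libraries. No MI library overlapped a control library, yet the pooled spread left it at 0.75 ± 0.31 (SE; limma adjusted p = 0.0596).

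The 3 class I chains had the highest FPKM. As a role they had the largest median difference between MI and control on the log2(FPKM + 1) scale, 0.80. That scale understates the change of low genes. As ratios of mean FPKM, MI over control, the chains stood at 1.68 to 1.93 and the sensors, which are low in FPKM, at 1.49 to 2.92. None of the chains was called by limma or voom, and 2 of 3 (B2m and H2-D1) had an unadjusted p below 0.05. B2m, the light chain shared by all class I molecules, had 191, 372 and 850.3 FPKM in HXP libraries, 287, 514 and 671 FPKM in MI libraries, and 219, 286 and 428 FPKM in control libraries. The difference was 0.73 ± 0.32 (SE; limma adjusted p = 0.0687). H2-K1, a heavy chain that presents peptides to CD8 T cells, had 17.3, 54.8 and 138 FPKM in HXP libraries, 53.2, 93.9 and 131 FPKM in MI libraries, and 37.6, 50.1 and 83.0 FPKM in control libraries, with 0.80 ± 0.41 (SE; limma adjusted p = 0.113). H2-D1, the other such chain, had 22.4, 74.3 and 189 FPKM in HXP libraries, 73.3, 131 and 195 FPKM in MI libraries, and 48.1, 68.2 and 94.1 FPKM in control libraries, with 0.91 ± 0.41 (SE; limma adjusted p = 0.0775). In all 3 genes MI 6 lay among the controls and the highest HXP library lay near or above the highest MI library. Tapbp, H2-K1, Tap1, Tap2, Psmb8, Psmb9 and H2-D1 lie within one region of the MHC, chr17:33915899-35267499 on GRCm38, with B2m on chromosome 2 and Psmb10 on chromosome 8.

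**Figure D3:**
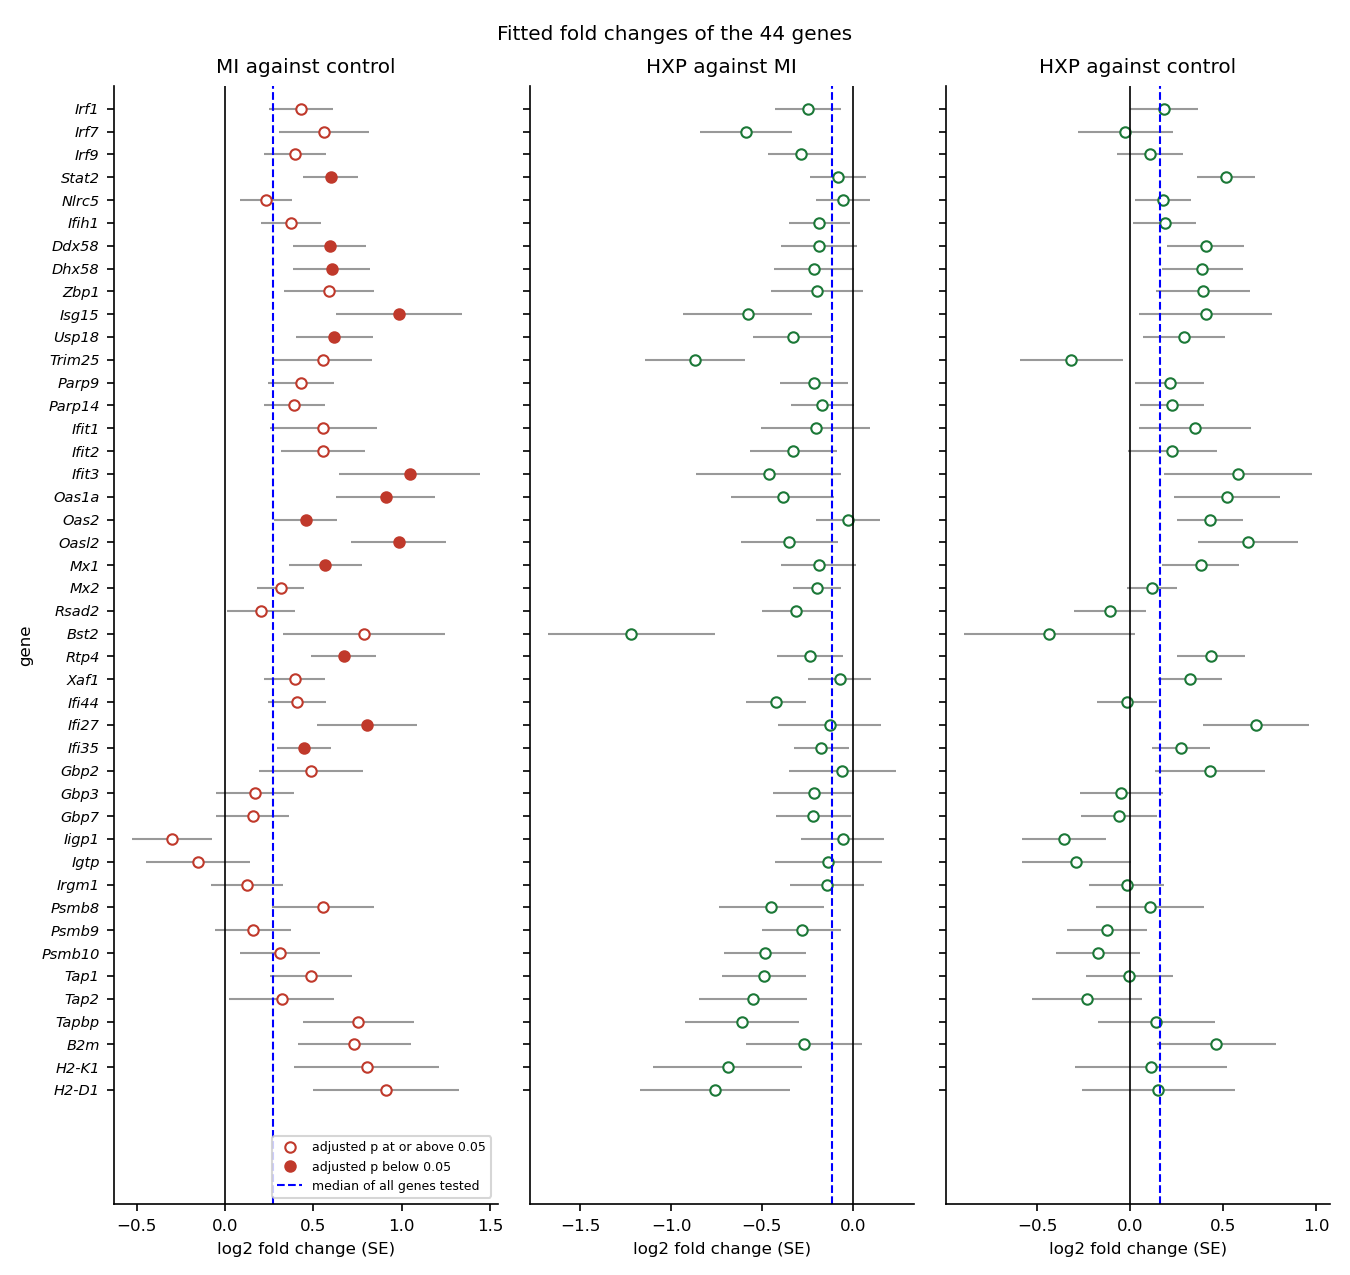
Fitted log2 fold change with its SE (horizontal) of each of the 44 genes (vertical, by role) in MI against control, HXP against MI and HXP against control, filled where the limma adjusted p was below 0.05. The 13 filled points are all in MI against control, all 44 points lie left of 0 in HXP against MI (10 lie right of it under quantile normalization and 8 under median-ratio scaling), and the dashed line is the median of all genes tested.

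In HXP against MI, every one of the 44 fold changes was negative and none passed the test, while 10 were positive under quantile normalization and 8 under median-ratio scaling. By limma 0 of 44 were called and 0 of all 13710 genes, so the background is 0%. At an unadjusted p below 0.05, 5 of the 44 and 11.9% of all genes were lower, 0 of the 44 were higher, and voom on recovered reads called 0. The median log2 fold change was -0.24, against -0.12 for all genes, of which 24.6% were positive. It was -0.11 under quantile normalization (0.04 for all genes) and -0.16 under median-ratio scaling, which moved the all-gene median to within 0.01 of 0. In 0 of the 44 did all HXP libraries lie below all MI libraries, which held for 0.306% of all genes. Without HXP 6 the median was -0.12, 7 of the 44 were positive and 0 were called. Within the run of 10 libraries alone, which holds 2 HXP libraries, the median was -0.03. With the run of library numbers as a covariate it was -0.19, 4 of the 44 were positive and 0 had an unadjusted p below 0.05.

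By unadjusted p, the first 6 genes in HXP against MI were Trim25, Bst2, Ifi44, Irf7, Psmb10 and Tap1. Trim25 had 1.80, 3.90 and 8.82 FPKM in HXP libraries, 6.83, 8.88 and 9.37 FPKM in MI libraries, and 2.16, 6.05 and 7.98 FPKM in control libraries. It was lowest in HXP 1, HXP 4 and HXP 3 (1.80, 2.57 and 3.02 FPKM) and in control 3 (2.16 FPKM). HXP 3 was thus low for this gene, although it was the highest HXP library for 39 of the 44. The difference was -0.87 ± 0.28 (SE; limma adjusted p = 0.256). Within the run of 10 libraries alone, which holds 2 HXP libraries, it was -0.08 (limma adjusted p = 0.998). HXP 1, HXP 3 and HXP 4 belong to the run that held no MI library. In that same run HXP 6 had 4.79 FPKM and control 1 had 6.23 FPKM, while control 3 belongs to the run of 10. The part of the run in these values was not tested. Bst2 had 3.47, 19.9 and 49.4 FPKM in HXP libraries, 30.6, 38.7 and 72.8 FPKM in MI libraries, and 17.7, 23.4 and 36.9 FPKM in control libraries. HXP 6, HXP 5 and HXP 4 lay below every control and every MI library, HXP 2 and HXP 3 among the MI libraries, and the difference was -1.22 ± 0.46 (SE; limma adjusted p = 0.307). Ifi44 had 0.246, 0.786 and 1.48 FPKM in HXP libraries, 0.923, 1.53 and 1.85 FPKM in MI libraries, and 0.439, 0.818 and 1.16 FPKM in control libraries, with -0.42 ± 0.16 (SE; limma adjusted p = 0.310). Irf7 differed by -0.59 ± 0.25 (SE; limma adjusted p = 0.334), Psmb10 by -0.48 ± 0.23 (SE; limma adjusted p = 0.361) and Tap1 by -0.49 ± 0.23 (SE; limma adjusted p = 0.361). In each of these 3, HXP 2 and HXP 3 lay within the MI range and HXP 6 below it.

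On the log2(FPKM + 1) scale, which understates the change of low genes, the sizes of the differences varied by role, without a test of that variation. The median log2 fold change in HXP against MI was -0.69 for the class I chains, -0.55 for peptide loading, -0.45 for the immunoproteasome, -0.33 for the modifiers, -0.25 for the transcription factors, -0.24 for the effectors, -0.19 for the sensors and -0.14 for the GTPases (0.04 under quantile normalization). H2-D1 differed by -0.76 ± 0.41 (SE; limma adjusted p = 0.402), H2-K1 by -0.69 ± 0.41 (SE; limma adjusted p = 0.431) and Tapbp by -0.61 ± 0.31 (SE; limma adjusted p = 0.383). Without HXP 6 these were -0.42, -0.36 and -0.34. With the GC trend of each library removed they were -0.60, -0.49 and -0.26. Stat2, Oas2, Gbp2, Iigp1, Nlrc5 and Xaf1 differed by less than 0.1 in size, from -0.08 for Stat2 to -0.03 for Oas2.

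The HXP group spread more widely than either other group. The median SD of log2(FPKM + 1) over the 44 genes was 0.585 in HXP, 0.347 in MI and 0.213 in control libraries, against 0.319, 0.206 and 0.128 over all genes. HXP 3 was the highest HXP library for 39 of the 44 genes and for 54.4% of all genes. HXP 6 was the lowest for 39 of the 44 and for 58.1% of all genes. HXP 6 lay below every control library in 36 of the 44 (40.8% of all genes), and HXP 3 lay above every control library in 39 of the 44 (68.1% of all genes). HXP 2 did so in 37 (64.5% of all genes), HXP 5 in 15 (29.9%), HXP 1 in 14 (59.8%) and HXP 4 in 2 (25.1%), so that HXP 1 and HXP 4 did so in a smaller share of the 44 than of all genes. Isg15 shows the spread within the group, at 21.6 FPKM in HXP 3, 14.6 in HXP 2, 9.57 in HXP 5, 8.47 in HXP 1, 3.84 in HXP 4 and 2.58 in HXP 6. Among MI libraries MI 3 was highest for 32 of the 44 (18.6% of all genes) and MI 6 lowest for 41 of the 44 (44.2% of all genes).

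**Figure D4:**
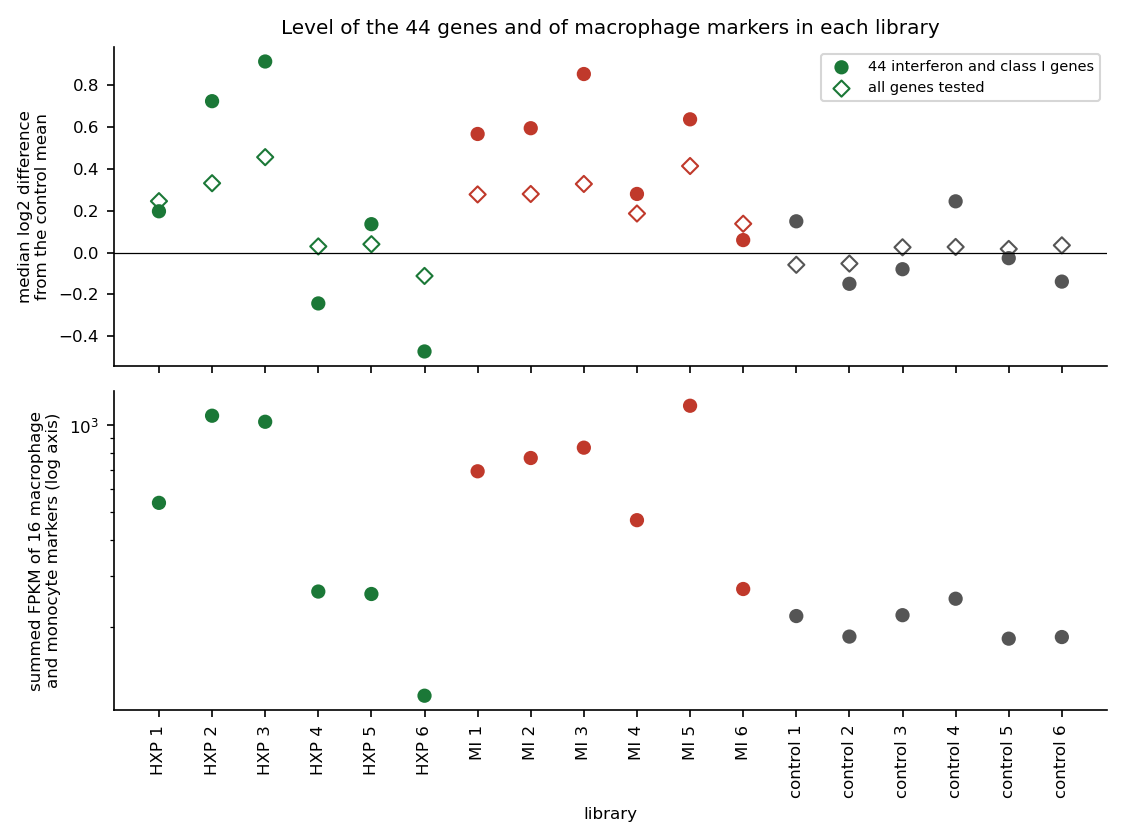
Upper panel: median over genes of log2(FPKM + 1) minus the control mean, for the 44 genes (filled circles) and all genes tested (open diamonds), in each HXP (green), MI (red) and control (grey) library. Lower panel: summed FPKM of 16 macrophage and monocyte markers on a log axis. HXP 2, HXP 3, MI 1, MI 2, MI 3 and MI 5 are high in both panels, and HXP 6 is lowest in both. MI 5 also held lung epithelial markers.

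Macrophage markers and the level of the 44 genes were both high in several HXP and MI libraries, with exceptions. The summed FPKM of 16 macrophage and monocyte markers was 115 to 1077 in HXP, 270.0 to 1166 in MI and 182 to 249.8 in control libraries, and 14 of 16 were called higher in MI against control. Over all genes tested 40.1% were called higher, the share to set beside each count of markers called higher below. HXP 6 had the lowest macrophage sum and MI 5 the highest, with HXP 2 and HXP 3 next. MI 5, which also had the highest fibroblast sum, held lung epithelial markers at a summed 1182 FPKM. The part of lung tissue in its marker sums was not tested. HXP 4 went the other way: its marker sum of 265 FPKM was above every control library, while the median difference of the 44 genes from the control mean was -0.24, below every control library. MI 6 had a higher marker sum than control 4 (270.0 FPKM in MI 6, 249.8 FPKM in control 4) and a lower median of the 44 genes (0.06 in MI 6, 0.25 in control 4). All 8 pan-leukocyte markers were higher in MI against control, with sums of 10.7 to 122, 23.4 to 99.4 and 14.6 to 20.96 FPKM in HXP, MI and control libraries. Of 9 fibroblast markers 9 were higher in MI against control, with sums of 111 to 2002, 362 to 2059 and 140.4 to 191 FPKM. Endothelial markers, of which 1 of 10 was called higher, summed to 109.9 to 252, 226 to 265 and 146 to 229 FPKM. The part of these cells in the levels of the 44 genes was not tested.

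Lymphoid and dendritic markers were low in every group. The sum of 16 T and NK cell markers was 2.64 to 17.5 FPKM in HXP, 3.11 to 11.2 in MI and 2.997 to 5.35 in control libraries. Cd3e, which defines T cells, had 0.0126, 0.130 and 0.424 FPKM in HXP, 0.0626, 0.174 and 0.233 FPKM in MI and 0.0191, 0.0611 and 0.103 FPKM in control libraries. Of these 16 markers 5 passed the filter and 1 was called higher in MI against control. Of 8 plasmacytoid and conventional dendritic cell markers 3 passed the filter and 1 was called, with sums of 2.93 to 12.1, 5.31 to 10.6 and 3.89 to 6.92 FPKM, and Siglech, which marks the plasmacytoid cells that make type I interferon, had 0.0572, 0.0899 and 0.160 FPKM in HXP, 0.0156, 0.0957 and 0.128 FPKM in MI and 0.0192, 0.0705 and 0.0962 FPKM in control libraries. B cell markers summed to 1.47 to 19.8, 3.61 to 9.05 and 1.11 to 3.92 FPKM, and the 3 of 7 that passed the filter were all called higher in MI. Neutrophil markers summed to 1.35 to 17.8, 2.41 to 13.5 and 0.705 to 21.8 FPKM, with 1 of 4 tested called higher and Ly6g at 0 or near it throughout. The cardiomyocyte markers stood at 9825 to 17157, 10769 to 14312 and 13197 to 14488 FPKM, with 2 of 10 called lower in MI, so the defining markers of the labelled tissue were present in every library. Their part in the levels of the 44 genes was not tested.

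HXP 5 separated the class I presentation genes from the rest. In that library 8 of the 9 immunoproteasome, peptide loading and class I genes lay below the control mean, with a median difference of -0.42, while 6 of the other 35 did, with a median of 0.26. Tap2 had 4.38 FPKM, Tapbp 14.7, Psmb10 13.2 and H2-K1 38.1 in HXP 5, whereas B2m had 390.0. Control libraries had 7.99, 9.25 and 11.2 FPKM for Tap2 (lowest, median and highest), 17.1, 21.4 and 23.2 for Tapbp, 16.4, 19.8 and 22.8 for Psmb10, 37.6, 50.1 and 83.0 for H2-K1 and 219, 286 and 428 for B2m. HXP 6 had 9 of 9 presentation genes and 34 of the other 35 below the control mean, with medians of -1.13 and -0.40. In HXP 4 the counts were 9 of 9 and 27 of 35, with medians of -0.39 and -0.20, and in HXP 3 they were 0 of 9 and 1 of 35.

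GC content moved with the level in HXP 5 and HXP 6, and less so in HXP 4, the other library with 9 of 9 presentation genes below the control mean. Over all genes the trend of HXP 5 fell by 0.38, that of HXP 6 by 0.57 and that of HXP 4 by 0.11 on the log2 scale between genes at 42.3% and 57.8% GC, the 10th and 90th percentiles, while MI libraries rose by 0.03 to 0.26 over the same span. The presentation genes are rich in GC, at 58.4% for Tapbp, 58.3% for Psmb10, 57.9% for Tap2 and 55.3% for H2-K1, apart from B2m at 41.2%. Bst2, the effector that was low in HXP 4, 5 and 6, has 56.9%. Not every gene of high GC was low in HXP 5. Ifi35, at 55.4%, had 8.93 FPKM there, against a control mean of 7.80 FPKM. At 53.9%, Irf1 had 6.09 FPKM in HXP 5 (control mean 5.58 FPKM) and H2-D1 had 49.5 FPKM (control mean 69.5 FPKM). Across the 44 genes, which are not independent replicates, the correlation between GC content and the difference from the control mean was -0.53 in HXP 5, -0.43 in HXP 6, -0.13 in HXP 4, 0.10 in HXP 3, 0.16 in HXP 2 and 0.45 in HXP 1. In HXP 5 the 22 genes of lower GC had a median difference of 0.30 and the 22 of higher GC a median of 0.03. The part of GC content in the levels of the presentation genes was not tested beyond the fit with the trend removed.

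**Figure D5:**
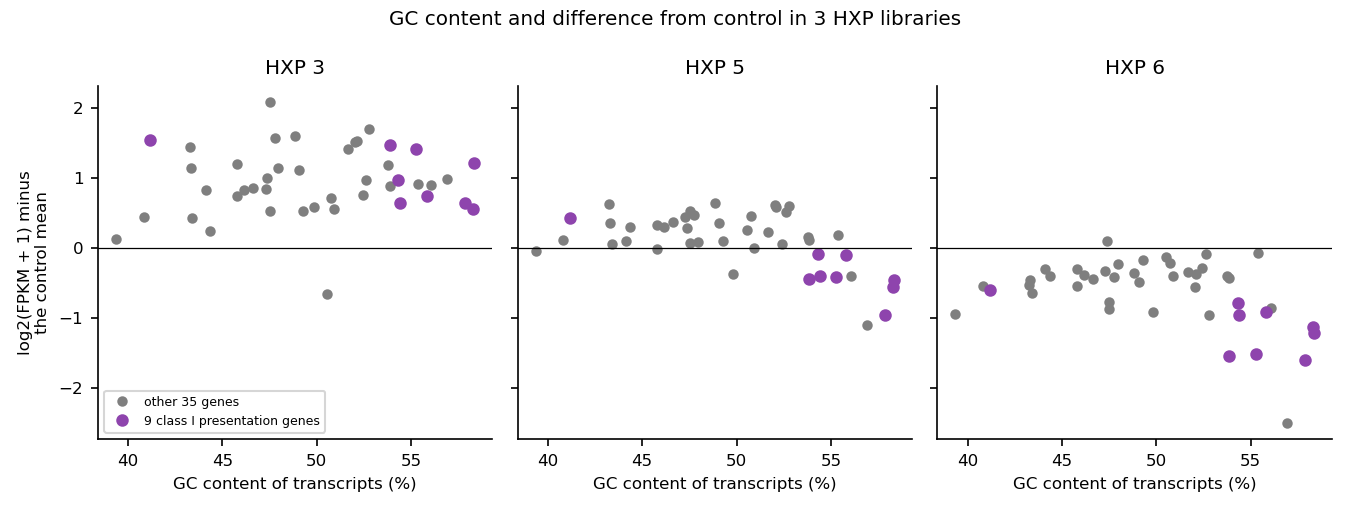
GC content of the transcripts (horizontal, percent) and difference of log2(FPKM + 1) from the control mean (vertical) for the 44 genes in HXP 3, HXP 5 and HXP 6, with the 9 class I presentation genes in purple. In HXP 5 and HXP 6 the purple points other than B2m, the one at 41.2% GC, lie at the lower right, and in HXP 3 they lie above 0 at every GC content.

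Ratios of 2 genes within a library do not depend on the scaling of the library. Ratios of the class I heavy chains to B2m, and of each immunoproteasome subunit to the constitutive subunit it replaces, gave 15 comparisons, each with an exact permutation test over 924 regroupings (two-sided), and none passed at an adjusted p below 0.05. H2-D1 over B2m was 0.117, 0.214 and 0.273 in HXP and 0.244, 0.256 and 0.290 in MI libraries (lowest, median and highest). It was lower in HXP by a log2 difference of -0.50 (exact p = 0.0108, adjusted over the 15 p = 0.152), and 5 of 6 HXP libraries lay below every MI library. H2-K1 over B2m was 0.0903, 0.153 and 0.202 in HXP and 0.169, 0.185 and 0.211 in MI libraries, with a log2 difference of -0.44 (exact p = 0.0303, adjusted p = 0.152). HXP 5 and HXP 6 were the lowest libraries in both. Without them the log2 differences were -0.20 for H2-D1 over B2m (exact p = 0.0476) and -0.16 for H2-K1 over B2m (exact p = 0.133). The heavy chains are richer in GC than B2m, as given above.

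The ratios of proteasome subunits did not pass the adjusted test in any comparison. Psmb10 over Psmb7 was 0.465, 0.643 and 0.839 in MI and 0.433, 0.482 and 0.604 in control libraries, a log2 difference of 0.37 (exact p = 0.0303, adjusted p = 0.152). Psmb8 over Psmb5 was 0.0538, 0.0794 and 0.133 in MI and 0.0421, 0.0659 and 0.0754 in control libraries (exact p = 0.0996). Psmb9 over Psmb6 was 0.0398, 0.0543 and 0.0750 in MI and 0.0344, 0.0512 and 0.0662 in control libraries (exact p = 0.671). In HXP libraries the 3 ratios reached from 0.0450, 0.0720 and 0.138 for Psmb8, 0.0191, 0.0396 and 0.0879 for Psmb9 and 0.198, 0.502 and 0.845 for Psmb10 (lowest, median and highest), with HXP 3 highest and HXP 6 lowest in each. In every library the FPKM of Psmb8 and Psmb9 stood well below that of the subunits they replace. FPKM is a level per length, and the merged exon length was 3381 bases for Psmb8 and 3660 for Psmb9. The size of these ratios therefore depends on the annotated lengths, so they serve to compare groups and not the amounts of 2 subunits.

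In HXP against control, 0 of the 44 were called by limma and 0 by voom, with 0.0948% of all genes called higher and 0.219% lower. At an unadjusted p below 0.05, 5 of the 44 were higher and 0 lower, against 27.7% and 5.45% of all genes. Fold changes were positive for 30 of the 44 (25 under quantile normalization and 24 under median-ratio scaling; 72.8% of all genes as reported), with a median of 0.18, against 0.16 for all genes. Stat2 had the smallest p of the 44, at 0.52 ± 0.16 (SE; limma adjusted p = 0.0881), and was called under median-ratio scaling, quantile normalization and removal of the GC trend, as the 1 gene of the 44 in each, with 468, 585 and 496 of all genes higher. The other 4 were Oas2 at 0.43 ± 0.18 (SE; limma adjusted p = 0.122), Ifi27 at 0.68 ± 0.28 (SE; limma adjusted p = 0.123), Rtp4 at 0.43 ± 0.18 (SE; limma adjusted p = 0.125) and Oasl2 at 0.63 ± 0.27 (SE; limma adjusted p = 0.125). Without HXP 6, 8 of the 44 (18.2%) were called higher, namely Stat2, Ddx58, Dhx58, Oas1a, Oas2, Oasl2, Xaf1 and Ifi27, below the 28.1% of all genes called higher in that fit. Without HXP 5 and HXP 6 together 11 of the 44 and 40.9% of all genes were called higher. HXP and MI share the same control libraries, so their differences from control are given side by side only. For Oasl2 they were 0.63 in HXP and 0.98 in MI, and for Stat2 0.52 in HXP and 0.60 in MI. For H2-D1 they were 0.15 in HXP and 0.91 in MI, and for Bst2 -0.43 in HXP and 0.78 in MI.

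The genes around the 44 in the pathway were counted from lists of the same kind. Interferons themselves were hardly read. Of 11 ligands listed, Ifnab, Ifng, Ifnk and Ifne were read and none passed the filter, with Ifng at 0, 0.0101 and 0.0815 FPKM in HXP, 0.0203, 0.0396 and 0.0812 FPKM in MI and 0, 0 and 0.0790 FPKM in control libraries. The symbols of the other 7 (Ifnb1, Ifna1, Ifna2, Ifna4, Ifna5, Ifnl2 and Ifnl3) were not found among the genes of the files, so their levels could not be read. Of 15 receptors, kinases and factors tested, 7 were higher and 0 lower in MI against control. The type I receptor chain Ifnar2 had 7.09, 9.99 and 11.5 FPKM in MI libraries, against 4.93, 5.07 and 5.54 FPKM in control libraries, without overlap, and differed by 0.75 ± 0.20. The gamma receptor chain Ifngr1 differed by 0.91 ± 0.25 and the factor Irf5 by 1.21 ± 0.34, with limma adjusted p of 0.0150, 0.0155 and 0.0161 for the 3.

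Upstream sensing genes were higher in 9 of 14 tested and lower in 0, led by Adar (0.61), which edits double-stranded RNA, Ticam1 (0.49), an adaptor of Toll-like receptors, and Tlr8 (0.59). In the list of negative regulators 6 of 9 were higher, led by the phosphatase Ptpn6 (1.34), Socs3 (1.36) and Isg20 (0.77). Isg20 is an exonuclease that degrades viral RNA, so this list does not hold regulators alone. Ptpn6 is also counted among the pan-leukocyte markers above. Of 59 other interferon-stimulated genes tested, 29 were higher and 0 lower in MI against control, with a median of 0.50, led by Shisa5 (1.26), Lgals9 (0.89) and Ifi30 (1.63), the lysosomal thiol reductase. The constitutive proteasome held 1 call among 18, Psma5 (0.31), with a median of 0.12. Of 20 other genes of class I presentation 8 were higher, led by the chaperones Calr (0.68) and Pdia3 (0.94) and by Mr1 (0.45), which presents metabolites. Beside the 40.1% of all genes called higher, these shares lay above it for sensing, negative regulators, receptors and other interferon-stimulated genes, near it for other class I genes and below it for the constitutive proteasome. In HXP against MI and in HXP against control, 0 of the 135 genes tested in these lists were called by limma or voom. At an unadjusted p below 0.05, 4 of the 135 were higher and 6 lower in HXP against MI, where 1.89% of all genes were higher and 11.9% lower. In HXP against control 39 of the 135 were higher and 1 lower, near the 27.7% of all genes that were higher and below the 5.45% that were lower.

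Promoter letters and the size of the differences were set side by side. The 15 genes with an ISRE core had a median log2 fold change of 0.56 in MI against control, with 5 called, and the 16 matched genes without one had a median of 0.52, with 2 called. Over all genes tested 40.1% were called higher, so both counts lie below that share. In HXP against MI the medians were -0.22 with a core and -0.44 without one. The 5 matched GTPases all held a core in the windows shown or counted above and had 0 calls, while Oasl2, the gene called under the most alternatives, held no core in its window.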

How the data were processed

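Total RNA of 18 mouse heart libraries was depleted of ribosomal RNA and sequenced, per the labels' protocols. The authors deposited 1 value per gene and library, and the deposited values are taken as FPKM from the values themselves: multiplied by the merged exon length of the gene they are whole multiples of 1 read in each library (98.7% to 99.1% of the values checked, within 0.1 of a whole read), which gave depths of 75.8 to 81.1 M reads. The submitters' processing notes name GRCm38 and limma, with no role. No source used here gives the aligner, the counting tool, the use of strand or the annotation. IDs were matched to GENCODE M21 on GRCm38 (34097 of 34150) for symbols, exon lengths and GC content.

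Values were analysed as log2(FPKM + 1) where the mean over 18 libraries was 0.5 FPKM or more, in 1 linear model with 3 groups in limma 3.58.1 (R 4.3.3; trend on, robust prior off), two-sided, with Benjamini-Hochberg adjustment over all 13710 genes and calls below 0.05. Fold changes are differences on the log2(FPKM + 1) scale, given with their standard error, and understate the change of low genes. The fit was tested on simulated data. Ratios were tested by exact permutation over libraries in SciPy 1.17.1, and voom was run on the recovered reads as an alternative.

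The members and lists were chosen with earlier results of these data known, so no list was given a test of its own. All 44 genes were named by role. Lowest, median and highest values were given for 12 genes of a fixed list, for the 2 largest and 2 smallest differences in size in MI against control of each role and for the 6 smallest p in HXP against MI. Those of Oas1a and Ifi27 were added after their values were seen. Of the pathway lists the 3 smallest p in MI against control were named, and the values of 1 other pathway gene are not reported here. The labels do not say whether the replicate number pairs libraries, and it was not used as a pairing in the main fit. Correlations of the deviations of same-numbered libraries ran from -0.31 to 0.63, which cannot decide that question. Alternatives covered scaling, filter, pseudocount, prior, samples, a replicate block, the run of library numbers, GC content and each library left out. The motif of the NF-kB type, the ratios and the fits without HXP 5 and HXP 6, with MI 1 and MI 2 averaged, with the GC trend removed and with voom were added after seeing the data.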

Additional observations from a re-analysis of the deposited data

Results flagged for a closer look

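In 5 of 132 groups of 6 libraries (44 genes in 3 groups), 1 library lay far from the other 5, with a gap, as a share of the group's range, beyond Dixon's critical value for 6 samples. Chance flags about 1 in 20 groups. In the control group, control 4 was the library apart for Irf7 at 3.62 FPKM, for Xaf1 at 2.45 FPKM and for Ifi27 at 15.5 FPKM. In the MI group, MI 3 was the library apart for Gbp3 at 11.8 FPKM and for Iigp1 at 27.1 FPKM. All 5 were the highest library of their group. No HXP library was apart from its group in this way.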

How the results depend on the processing

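Over the 34 alternatives no called fold change of the 44 genes in MI against control changed sign. Over these genes and alternatives, 169 values were no longer called, 90 were newly called and 3 changed sign by more than the spread between libraries without a call, against 1211 with the same call. Percentages in brackets are the share of all genes called higher. The count of 44 called higher in MI against control, 13 as reported (40.1%), was 1 with quantile normalization (13.6%) and 3 with median-ratio scaling (16.5%). It was 6 when scaled to genes that are not mitochondrial (26.5%), 4 with no filter (11.4%) and 4 with a mean of at least 5 FPKM (21 of the 44 genes, 35.9%). It was 34 with the 2 compared groups alone (53.9%), 5 with the run of library numbers as a covariate (28.8%) and 0 in the run of 10 libraries (0.540%). It was 0 without MI 4 and MI 5 (0%), 26 without HXP 5 and HXP 6 (48.7%), 5 with MI 1 and MI 2 averaged (28.7%) and 4 with the GC trend removed (17.0%). The counts of 34 and 26 are 77.3% and 59.1% of the 44, above the share of all genes. The count ranged from 3 to 28 when 1 library was left out. The number of all genes called higher moved over the same alternatives, from 0 to 7387. The count of the 44 was 13 with a pseudocount of 0.1 (40.4%), 13 with a robust prior (39.9%) and 10 with voom (38.6%). The count lower, 0 as reported, was 1 with quantile normalization and 1 with median-ratio scaling. The cause of these shifts was not tested, apart from fewer genes or libraries where the alternative itself removes them.

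With the replicate number as a block (replicate block), 21 of the 44 and 37.9% of all genes were called higher in MI against control. In the other comparisons 0 of the 44 were. Same-numbered libraries did not deviate together in every pair, which cannot decide whether the number marks a pairing.

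In HXP against control, the count called higher, 0 as reported, was 1 with quantile normalization (4.27% of all genes) and 1 with median-ratio scaling (3.41%). It was 1 with the GC trend removed (3.62%) and 11 without HXP 5 and HXP 6 (40.9%). It ranged from 0 to 8 when 1 library was left out, with 8 without HXP 6 (28.1%). In HXP against MI, 0 were called in either direction under every alternative run by limma or voom. The medians kept their sign under every alternative. That of MI against control ranged from 0.17 to 0.66, that of HXP against MI from -0.38 to -0.03 and that of HXP against control from 0.02 to 0.42. The ISRE core with CT was found in 9 genes in place of 15.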
